A study of Homo sapiens with 12 samples.

Results

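The genes described here are 30 widely cited transcriptional targets of p53, out of 57773 genes in the deposited table of ES-2 cells in which an IGF2BP was knocked down. They were chosen by symbol, with earlier results of these data known, and all 30 symbols were found. Of these, 25 had enough reads to be tested among 13782 genes, and 5 did not: GDF15, TP53INP1, FAS, BTG2 and SPATA18.

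ES-2 is an established ovarian cancer cell line. Its total RNA was sequenced after transfection with siRNA. A siRNA pool targeted IGF2BP1 in siI1, IGF2BP2 in siI2 and IGF2BP3 in siI3, and siC received control siRNA, with 3 libraries in each group. The 3 IGF2BPs are proteins that bind mRNAs. A pool holds several siRNAs, so off-target effects of single siRNAs were not measured, and the treatment label, shared by all libraries, names parental cells and no transfection. No label states whether the libraries of a group are separate cultures, so the p-values below measure the spread between these samples.

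The p53 protein is a transcription factor that is stabilized after DNA damage and other stress, binds a paired site in DNA and switches on genes for cell cycle arrest, apoptosis and DNA repair. Among its targets are its own inhibitors, such as MDM2, the ligase that marks p53 for degradation. Many targets also respond to other transcription factors, so their RNA can be present without p53 activity. The rule that chose these genes describes ES-2 as a p53-mutant line, and the activity of p53 in it was not measured here.

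The letters of the p53 site are shown first, because binding of p53 at such sites is what makes a gene its target. RefSeq promoter windows of 300 bases (250 before to 50 after the start, GRCh38.p14) were matched for 24 of the 30 genes, in 36 windows, and not for the other 6. The p53 consensus was searched on both strands over 20 bases, as a pair of adjoining 10-base copies with both 4-base cores intact and at most 3 mismatches elsewhere. It was present in 4 of 36 windows (11.1%), against 150 of 35116 windows of all genes with a window (0.427%). The genes were chosen as known p53 targets, and some have several windows, so these shares are not a test. These 4 matches are printed 5′ to 3′ with the 2 cores in capitals, as a description of letters that says nothing of binding in ES-2.
AEN: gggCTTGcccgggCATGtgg
FAS: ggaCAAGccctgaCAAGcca
GDF15: agcCATGcccgggCAAGaac
SESN1: ggaCAAGtctccaCAAGtca
The AEN match lies at chr15:88621306-88621325 on the plus strand and begins 34 bases before the start. The FAS match lies at chr10:88991309-88991328 on the plus strand and begins 122 bases before the start used for its window. The GDF15 match lies at chr19:18386186-18386205 on the plus strand and begins 28 bases after it. The SESN1 match lies at chr6:109009018-109009037 on the minus strand and begins 49 bases before the start used for its window. A gene can have several such starts. The annotated FAS gene begins at chr10:88990582 and the SESN1 gene at chr6:109094819, so both matches lie inside the gene. Other windows of FAS and SESN1 held no match. The AEN and GDF15 matches also lie inside their annotated genes, which begin at chr15:88621296 and chr19:18374731. None of these 4 genes was called changed in any of the 6 comparisons below with limma over all 12 libraries; FAS and GDF15 could not be tested.

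A single 10-base copy of the consensus was present in 6 of 36 windows (16.7%), against 2329 of 35116 (6.63%). The results below turn on PLK2 and CDKN1A, so the 250 bases before their starts are printed for comparison. The capitals in PLK2 mark its single 10-base copy, and the CDKN1A window holds none.
PLK2: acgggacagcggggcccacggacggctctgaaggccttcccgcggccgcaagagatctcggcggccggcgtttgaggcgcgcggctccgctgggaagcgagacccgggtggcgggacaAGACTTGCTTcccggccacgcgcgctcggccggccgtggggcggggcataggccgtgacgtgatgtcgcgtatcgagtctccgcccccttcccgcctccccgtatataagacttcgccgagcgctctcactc
CDKN1A: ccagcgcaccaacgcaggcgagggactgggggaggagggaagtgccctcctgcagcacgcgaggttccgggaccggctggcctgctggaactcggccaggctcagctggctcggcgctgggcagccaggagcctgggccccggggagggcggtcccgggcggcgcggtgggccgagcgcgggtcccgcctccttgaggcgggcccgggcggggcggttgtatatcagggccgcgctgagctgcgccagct
The PLK2 window is chr5:58460087-58460336 on the minus strand, and the CDKN1A window is chr6:36678464-36678713 on the plus strand. The well-known p53 sites of CDKN1A lie further upstream than this window.

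Levels are in FPM, the depth-scaled fragment unit of the deposited table, and 3 reads correspond to 0.324 to 0.727 FPM in these libraries of 3299360 to 11304060 reads. Each siRNA lowered its own target: IGF2BP1 lay at 10.7 to 11.7 FPM in siI1 libraries against 40.7 to 49.1 FPM in siC, IGF2BP2 at 9.37 to 19.2 FPM in siI2 against 74.8 to 83.9 FPM in siC, and IGF2BP3 at 2.54 to 5.89 FPM in siI3 against 19.5 to 29.4 FPM in siC. IGF2BP3 was also below every siC library in the other knockdowns, at 13.3 to 17.4 FPM in siI1 and 11.1 to 18.2 FPM in siI2, which did not pass the limma test used below (log2 fold changes of -0.58 and -0.63, adjusted p of 0.19 and 0.2). IGF2BP1 in siI2, at 53.8 to 58.6 FPM, and IGF2BP2 in siI1 and siI3, at 84.1 to 97.1 and 94.0 to 117 FPM, lay above every siC library and did not pass either. Of 11 markers fixed for an ovarian carcinoma line, KRT7, KRT8, KRT18 and VIM were abundant. KRT19, EPCAM, CDH1 and SOX17 had at most 6 reads in any library, PAX8 had 1 to 15, WT1 0 to 13 and MUC16 0 to 60. The abundant markers differed between groups: KRT8 and KRT18 were called higher in siI1 than in siC (log2 fold changes of 1.73 and 1.0, limma adjusted p of 0.000173 and 0.015), and VIM was called lower in siI3 (-1.52, adjusted p = 0.0264). The summed level of the 11 was 1713 to 1881 FPM in siI1, 978 to 1544 FPM in siI2, 966 to 1042 FPM in siI3 and 1551 to 1905 FPM in siC. Of 10 markers of other cells, 8 were in the table, and their summed level was 134 to 150.2 FPM in siI1, 108 to 128 FPM in siI2, 98.3 to 109.5 FPM in siI3 and 55.1 to 72.8 FPM in siC. CDH5, an endothelial cadherin that was called higher in all 3 knockdowns, made up nearly all of it, and the leukocyte and erythroid markers had at most 4 reads. The part of these marker differences in the results below was not tested. The siC libraries also differed in the slope of expression, as deviation from each gene's mean, on the GC content of its transcript. That slope was -0.46 and -0.43 log2 units per 10 points of GC in replicates 1 and 3, and 0.02 in replicate 2. In the 9 knockdown libraries it was -0.09 to 0.21.

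Per kilobase of the longest annotated transcript (GENCODE release 29), PLK2 and BAX stood far above the other p53 targets, with means over the 12 libraries of 45.1 and 40.2 FPM per kb. PLK2 is a polo-like kinase that is quickly induced by stress, and BAX forms the pore that opens the outer mitochondrial membrane in apoptosis. The next were the death receptor TNFRSF10B at 8.37, the growth arrest protein GADD45A at 8.19 and the nuclease AEN at 6.90 FPM per kb. CDKN1A (p21), the inhibitor of cyclin-dependent kinases that stands for p53 activity in many assays, was 18th of the 30 at 3.14 FPM per kb. MDM2 was 19th at 1.35. These ranks depend on the longest annotated transcript, of 2267 nt for CDKN1A and 12633 nt for MDM2. Before division by length, their means were 7.11 and 17.1 FPM. Which transcripts these cells express was not tested.

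The 5 targets that could not be tested were close to absent. GDF15, a secreted stress cytokine, had 0 to 5 reads per library. TP53INP1, a cofactor of p53, had 0 to 7 reads, and FAS, the receptor of FAS ligand, had 1 to 10. BTG2, an antiproliferative protein, had 0 to 2 reads, and SPATA18, a factor of mitochondrial quality control, had 0 to 6. At this depth no difference between groups was detectable for these 5 genes.

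Within the 25 tested targets, the ratio of the highest to the lowest library was 1.48 to 7.91, with a median of 2.96. It passed 5 in PLK2, CDKN1A, RRM2B and GADD45A, where RRM2B had only 4 to 26 reads per library. The smallest ratio was that of XPC, the damage sensor of nucleotide excision repair, with 12.5 to 18.4 FPM in all 12 libraries.

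**Figure D1:**
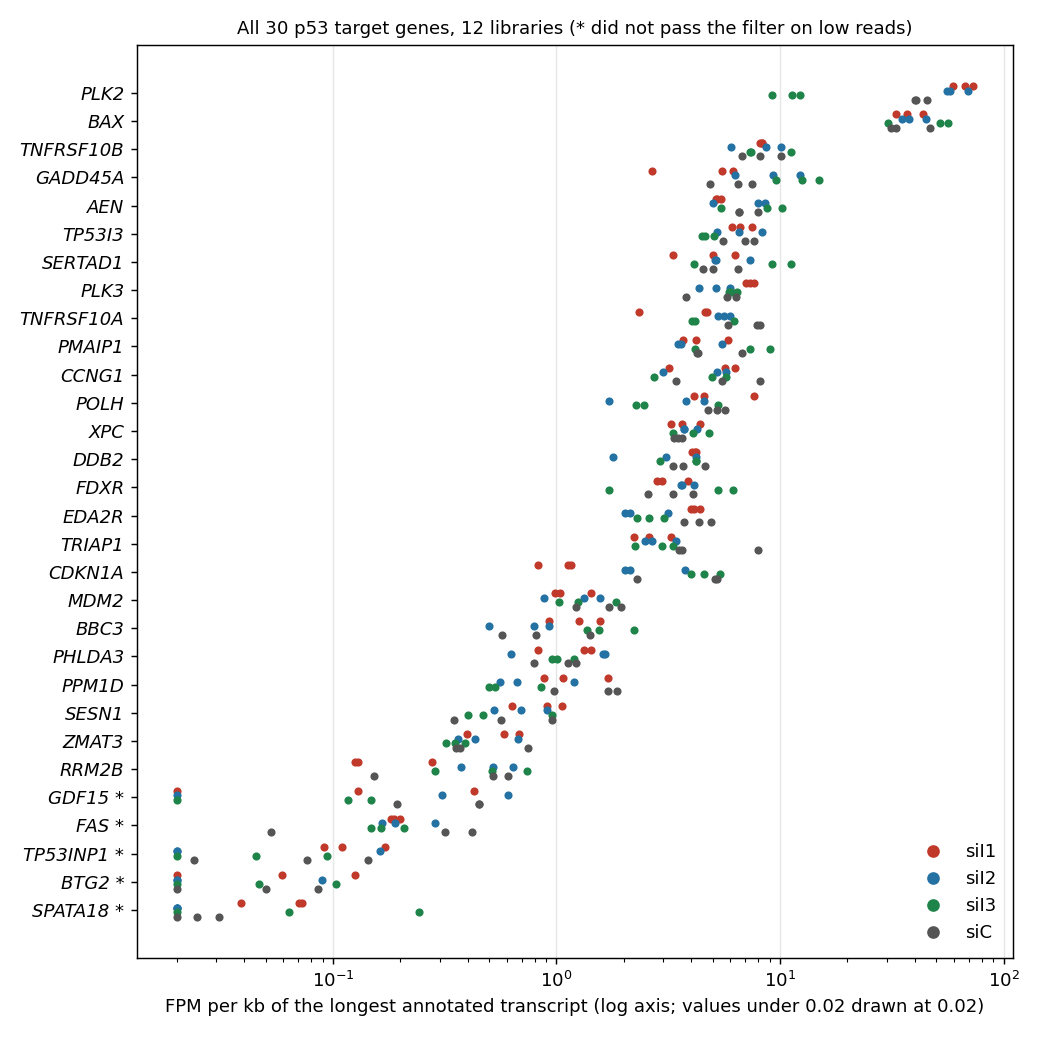
Level of all 30 p53 target genes in FPM per kilobase of the longest annotated transcript (log axis), 1 point per library, in siI1, siI2, siI3 and siC. PLK2 and BAX lie above the rest, with means of 45.1 and 40.2, and in PLK2 the 3 siI3 points are apart from the other 9.

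Differences were tested with limma on log2(FPM + 1) over all 12 libraries, which is the main fit. A gene was called where its p, adjusted by Benjamini-Hochberg over 13782 genes, was below 0.05. This scale understates the change of low genes. The 3 comparisons with siC share the same siC libraries and are therefore not independent of each other.

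After knockdown of IGF2BP1, CDKN1A fell and PLK2 rose, and no other tested p53 target passed the threshold. CDKN1A had 2.64, 2.56 and 1.88 FPM in siI1, against 5.22, 11.9 and 11.6 FPM in siC. All 3 siI1 libraries lay below all 3 siC libraries, and siC replicate 1 was lower than the other siC libraries. The siI1 mean, 2.36 ± 0.42 FPM, was 24.6% of the siC mean, 9.57 ± 3.77 FPM (SD, n = 3 each), with a log2 fold change of -1.59 (SE 0.32, limma adjusted p = 0.00717). The siI1 values rest on 11 to 17 reads and the siC values on 45 to 110. In bulk RNA, fewer cells with the transcript and less of it per cell cannot be told apart.

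PLK2 had 199, 216 and 176 FPM in siI1, against 135, 119 and 120.5 FPM in siC. The groups did not overlap, and the siC libraries lay close together. The siI1 mean was 1.58 times the siC mean, with a log2 fold change of 0.65 (95% interval 0.28 to 1.03, limma adjusted p = 0.034). Thus 1 of 25 tested targets rose (background over all genes 3.77%) and 1 fell (4.42%), or 2 of 25 in either direction (8.18%).

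The authors' deposited table gives CDKN1A a log2 fold change of -2.01 in siI1 with an FDR of 0.000245, and PLK2 0.66 with an FDR of 0.213. The PLK2 call was kept in 16 of 23 other fits and ended in 7, with adjusted p of 0.000535 to 0.537 over the 23. It ended without siC replicate 1 or 3 or any 1 of the 3 siI1 libraries (adjusted p of 0.0771 to 0.143), with no filter on low values (0.123) and with siC replicate 2 as the only control (0.537). The CDKN1A call was kept in 21 of 23, and ended without siC replicate 3 (adjusted p = 0.0545) and with siC replicate 2 as the only control (0.0693). After removal of the trend with GC content and length from each library, the log2 fold changes were -1.87 for CDKN1A (adjusted p = 0.000752) and 0.85 for PLK2 (0.00258).

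TNFRSF10A, a receptor of the death ligand TRAIL, stood just outside the threshold. It had 6.37, 12.5 and 12.8 FPM in siI1, against 21.3, 22.0 and 15.8 FPM in siC. All siI1 libraries were below all siC libraries, with a log2 fold change of -0.89 and an adjusted p of 0.0521. It was called in 7 of 23 other fits.

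Without regard to the test, the siI1 and siC libraries did not overlap in 6 of 25 targets. PLK2 and PLK3 were higher (2 of 25, against 15.2% of all genes), and CDKN1A, TNFRSF10A, TRIAP1 and AEN were lower (4 of 25, against 17.6%). The median log2 fold change of the 25 was -0.03, against -0.05 over all 13782 genes. On the log2(FPM + 1) scale, the 95% interval lay within 1 log2 unit of no change for 17 of the 25 and reached that bound for 8. For those 8 these libraries do not exclude a 2-fold difference. Nor do they for low genes among the 17, where that bound stands for a larger change in FPM.

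**Figure D2:**
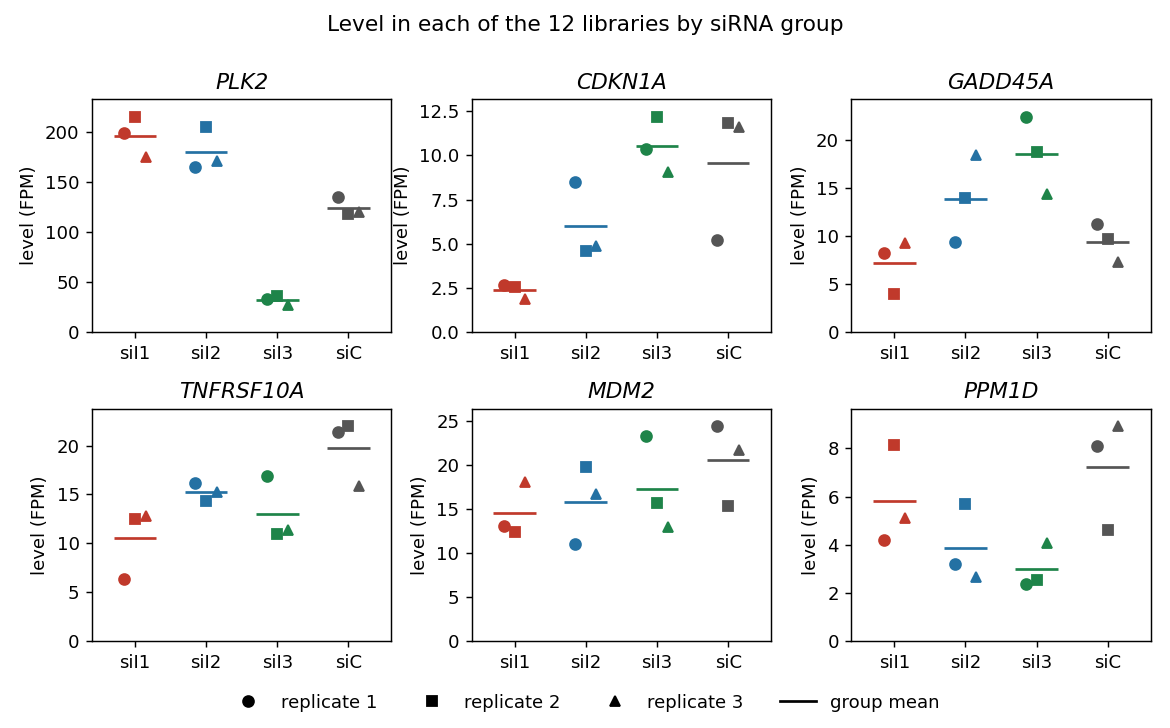
FPM in each of the 12 libraries for PLK2, CDKN1A, GADD45A, TNFRSF10A, MDM2 and PPM1D, with replicates as circles, squares and triangles and group means as bars. PLK2 is lowest in siI3 (27.3 to 36.3 FPM), CDKN1A is lowest in siI1 (1.88 to 2.64 FPM), and MDM2 overlaps between all groups.

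After knockdown of IGF2BP2, none of the 25 tested targets was called by limma (background 1.51% in either direction, 0.573% up and 0.936% down). Of the 25, 3 had an unadjusted p below 0.05: PLK2, the TNF receptor family member EDA2R and the phosphatase PPM1D. The share of all genes at that level was not counted, so the 3 cannot be set against a background. On reads recovered from the FPM values, edgeR's quasi-likelihood test also called 0 (1.34% of all genes), and DESeq2 called 1, PLK2 (5.88%). PLK2 had 165, 205 and 171 FPM in siI2, against 135, 119 and 120.5 FPM in siC. The groups did not overlap, with a log2 fold change of 0.53 (95% interval 0.15 to 0.90, limma adjusted p = 0.113). With GC and length corrected, PLK2 was called (0.78, adjusted p = 0.0133).

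CDKN1A had 8.52, 4.59 and 4.85 FPM in siI2, against 5.22, 11.9 and 11.6 FPM in siC. These ranges overlap, and the log2 fold change was -0.57 (95% interval -1.24 to 0.11, limma adjusted p = 0.295). XPC and PLK2 were higher without overlap (2 of 25, against 7.72% of all genes), and POLH, EDA2R and TRIAP1 were lower (3 of 25, against 12.3%). The median log2 fold change of the 25 was -0.02, against -0.09 over all genes. The interval lay within 1 log2 unit of no change on the log2(FPM + 1) scale for 18 of 25.

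After knockdown of IGF2BP3, PLK2 fell to 26.0% of its control level, and it was the only tested p53 target called in that comparison. PLK2 had 33.5, 36.3 and 27.3 FPM in siI3, against 135, 119 and 120.5 FPM in siC. The groups are far apart, and each holds a narrow range. The siI3 mean, 32.4 ± 4.63 FPM, stood against a siC mean of 125 ± 8.85 FPM (SD, n = 3 each), with a log2 fold change of -1.92 (SE 0.18, limma adjusted p = 4.64e-05). It was called in all 23 other fits, with log2 fold changes of -2.01 to -1.59. The authors' deposited table gives a log2 fold change of -1.94 for it. The count is 1 of 25 in either direction (background 10.6%), with 0 that rose (2.3%) and 1 that fell (8.29%).

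GADD45A and PPM1D came next in size and did not pass. GADD45A had 22.5, 18.8 and 14.4 FPM in siI3, against 11.2, 9.71 and 7.31 FPM in siC. All siI3 libraries were above all siC libraries, with a log2 fold change of 0.90 and a limma adjusted p of 0.0724. PPM1D, a phosphatase that shuts off the damage response, had 2.39, 2.54 and 4.08 FPM in siI3, against 8.12, 4.64 and 8.93 FPM in siC. These groups did not overlap either, with a log2 fold change of -1.02 and a limma adjusted p of 0.0596, or -0.64 (adjusted p = 0.151) with GC and length corrected. Both were called by DESeq2 on the recovered reads (adjusted p of 0.0263 and 0.0425), which called 3 of 25 targets and 16.7% of all genes.

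Replicate 3 of siI3 had less of several targets than the other siI3 libraries. AEN had 51.5, 44.2 and 27.5 FPM in siI3, against 40.2, 33.1 and 33.2 FPM in siC. BAX had 76.5, 70.9 and 41.1 FPM in siI3, against 44.9, 63.8 and 42.5 FPM in siC. In both genes siI3 replicate 3 fell below every siC library while the other siI3 libraries lay above them. Without that library 5 targets were called against siC: GADD45A and SERTAD1 higher (2 of 25, against 7.99% of all genes in the same fit), and PLK2, POLH and PPM1D lower (3 of 25, against 11.9%).

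CDKN1A was not called in siI3. It had 10.4, 12.2 and 9.04 FPM in siI3, against 5.22, 11.9 and 11.6 FPM in siC. The ranges overlap, with a log2 fold change of 0.19 (95% interval -0.48 to 0.86, limma adjusted p = 0.71). Over the 25 targets, 1 was higher without overlap (GADD45A; 9.25% of all genes) and 5 were lower (TP53I3, PLK2, EDA2R, TRIAP1 and PPM1D; 20.0%). The median log2 fold change of the 25 was 0.02, against -0.05 over all genes. On the log2(FPM + 1) scale, the interval lay within 1 log2 unit of no change for 15 of 25. With GC and length corrected, the oxidoreductase TP53I3 was called as well (-0.71, adjusted p = 0.0394).

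**Figure D3:**
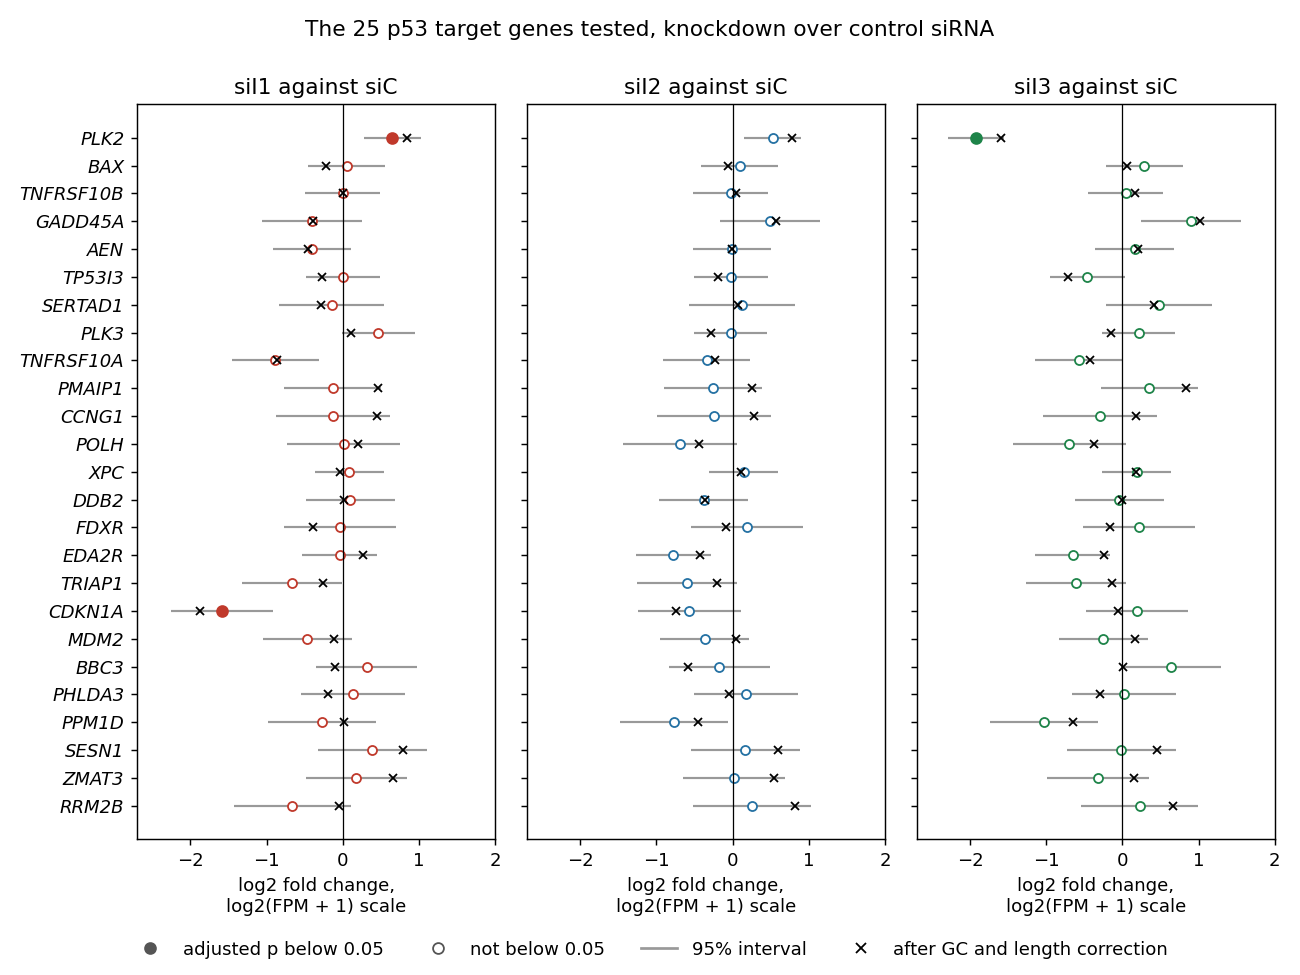
Log2 fold change of the 25 tested p53 targets in siI1, siI2 and siI3 over siC on the log2(FPM + 1) scale, with 95% intervals; filled points passed an adjusted p of 0.05, and crosses give the value with GC and length corrected. PLK2 is filled on the right of 0 in siI1 (0.65) and on the left in siI3 (-1.92), and CDKN1A is filled in siI1 (-1.59).

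The direct comparisons ask which targets differ between the knockdowns without the siC levels, although the fit shares its estimate of the spread over all 12 libraries. Between siI1 and siI3, 3 of 25 targets were called (background 7.05%): PLK2 was higher in siI1 (1 of 25, against 4.57% of all genes), and CDKN1A and GADD45A were lower (2 of 25, against 2.47%). The PLK2 libraries at 176 to 216 FPM in siI1 and 27.3 to 36.3 FPM in siI3 gave a 6.08-fold higher mean, with a log2 fold change of 2.57 (SE 0.18, limma adjusted p = 1.5e-07). CDKN1A at 1.88 to 2.64 FPM in siI1 and 9.04 to 12.2 FPM in siI3 gave a log2 fold change of -1.78 (SE 0.32, limma adjusted p = 0.00198). Both calls were kept in all 23 other fits.

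GADD45A had 8.23, 4.0 and 9.23 FPM in siI1, against 22.5, 18.8 and 14.4 FPM in siI3. The groups did not overlap, with a log2 fold change of -1.31 (SE 0.31, limma adjusted p = 0.0163). The call ended without siI1 replicate 2 (adjusted p = 0.101), siI3 replicate 1 (0.0839) or siI3 replicate 2 (0.061). In siI2 it had 9.37, 14 and 18.4 FPM, which spans the gap between the other knockdowns.

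Libraries did not overlap between siI1 and siI3 in 10 of 25 targets. PLK2, PLK3, TP53I3, ZMAT3, EDA2R and PPM1D were higher in siI1 (6 of 25, against 15.9% of all genes), and CDKN1A, GADD45A, RRM2B and AEN were lower (4 of 25, against 12.1%). The median of the 25 log2 fold changes was -0.06, against 0.01 over all genes. Without siI3 replicate 3, AEN and SERTAD1 were called lower in siI1 too, for 5 calls of 25 (8.87% of all genes in the same fit), 1 higher (5.12%) and 4 lower (3.76%).

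Between siI2 and siI3, PLK2 was the only target called (1 of 25, background 2.0%), and it was higher in siI2 (1 of 25, against 1.26% of all genes), with 0 lower (0.74%). Its libraries at 165 to 205 FPM in siI2 and 27.3 to 36.3 FPM in siI3 gave a log2 fold change of 2.45 (SE 0.18, limma adjusted p = 8.55e-07), which was kept in all 23 other fits. TP53I3 was also higher without overlap (2 of 25 with PLK2, against 7.69% of all genes), and CDKN1A and BBC3 were lower (2 of 25, against 8.84%).

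Between siI1 and siI2, limma called 0 of 25 targets (background 2.4% in either direction, 1.63% up and 0.769% down). Of the 25, 5 had an unadjusted p below 0.05: CDKN1A, GADD45A, PLK3, EDA2R and RRM2B (share over all genes not counted). edgeR called 0 (2.19% of all genes), and DESeq2 called 1, CDKN1A (adjusted p = 0.0398), and 3.95% of all genes. CDKN1A at 1.88 to 2.64 FPM in siI1 and 4.59 to 8.52 FPM in siI2 gave a log2 fold change of -1.02 (95% interval -1.69 to -0.35, limma adjusted p = 0.119), and it was called with GC and length corrected (-1.13, adjusted p = 0.0285). For PLK2 the log2 fold change was 0.13 (95% interval -0.25 to 0.50). Higher without overlap in siI1 were PLK3, EDA2R and BBC3 (3 of 25, against 13.3% of all genes), and lower were CDKN1A, GADD45A, TNFRSF10A and RRM2B (4 of 25, against 8.16%).

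**Figure D4:**
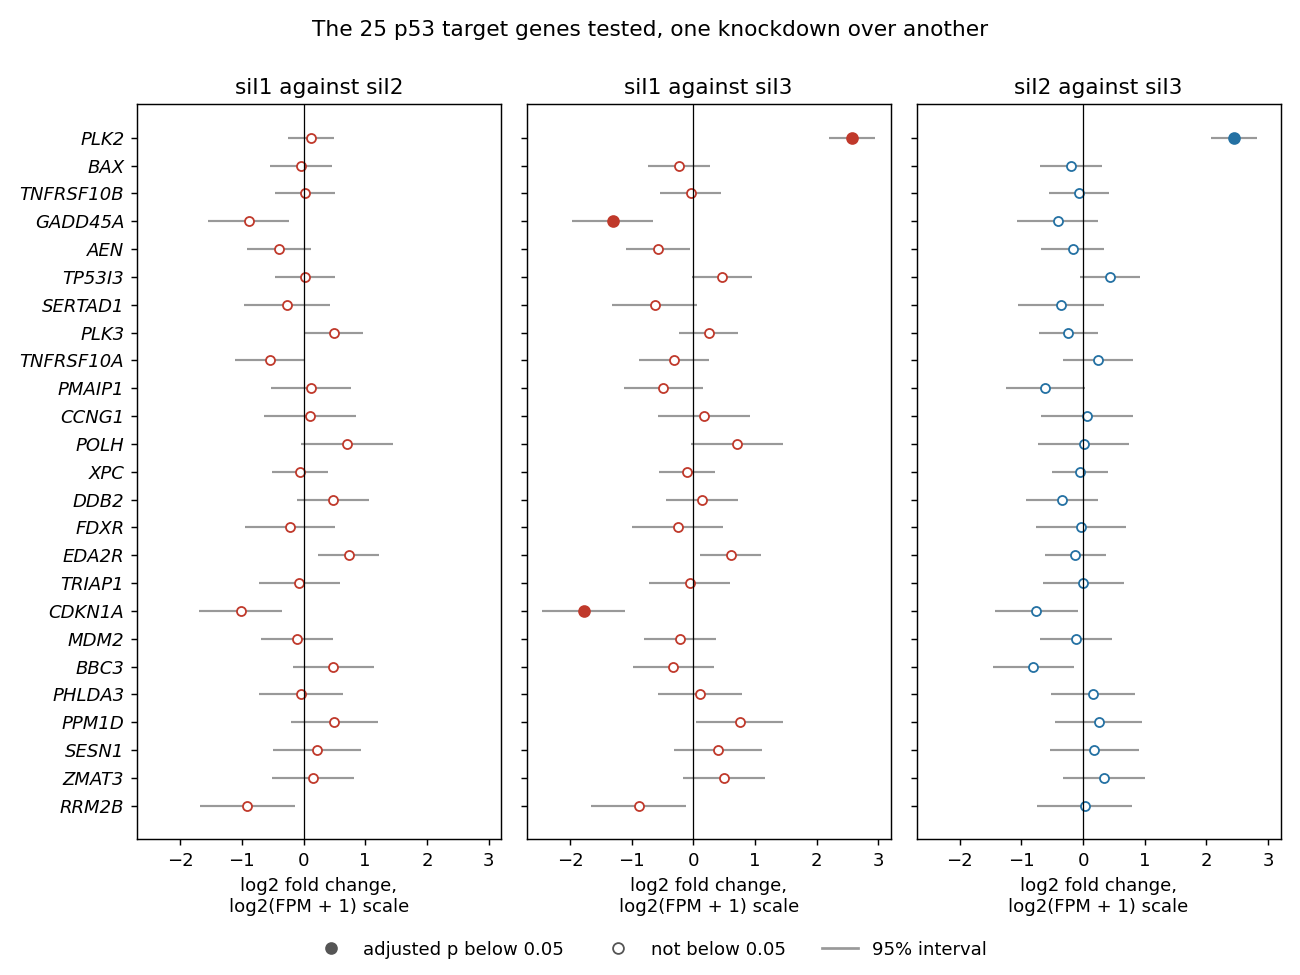
Log2 fold change of the 25 tested p53 targets between pairs of knockdowns, the first named over the second, on the log2(FPM + 1) scale with 95% intervals; filled points passed an adjusted p of 0.05. PLK2 is filled at 2.57 for siI1 over siI3 and at 2.45 for siI2 over siI3, and CDKN1A at -1.78 for siI1 over siI3.

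With GC content and length corrected in every library, the targets called were 3 of 25 in siI1 against siC (CDKN1A, PLK2 and TNFRSF10A; 6.59% of all genes), 1 in siI2 (1.37%) and 2 in siI3 (6.6%). Between knockdowns they were 1 for siI1 over siI2 (4.75%), 3 for siI1 over siI3 (11.5%) and 1 for siI2 over siI3 (3.79%).

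CDKN1A, PLK2 and GADD45A held all the calls of the main fit. PLK3, a kinase related to PLK2, was not called in any of the 6 comparisons, and its means were 18.3 ± 0.71 FPM in siI1, 12.9 ± 2.03 FPM in siI2, 15.3 ± 0.66 FPM in siI3 and 13.3 ± 3.36 FPM in siC (SD, n = 3 each). SERTAD1, a regulator that binds CDK4, ranged from 7.04 to 23.8 FPM and was not called in any of the 6 comparisons in the main fit.

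The genes of negative feedback on p53, MDM2, PPM1D and CCNG1, were not called in any of the 6 comparisons in the main fit. MDM2 had 13, 12.5 and 18.1 FPM in siI1, 11.1, 19.8 and 16.7 FPM in siI2, 23.3, 15.8 and 12.9 FPM in siI3, and 24.5, 15.4 and 21.8 FPM in siC. All 4 groups overlap, and the log2 fold changes over siC were -0.47 (95% interval -1.05 to 0.12) in siI1, -0.37 (-0.95 to 0.22) in siI2 and -0.25 (-0.83 to 0.33) in siI3. With GC and length corrected they were -0.11, 0.05 and 0.17, so the sign turned in siI2 and siI3. MDM2 was called in 0 of 23 other fits in any comparison with siC. CCNG1, a cyclin that brings a phosphatase to MDM2, ranged from 6.73 to 19.9 FPM, and its group means of 12.5 FPM in siI1, 11.4 FPM in siI2, 11 FPM in siI3 and 14 FPM in siC differed by less than the SDs of 3.57 to 5.78 FPM.

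Other genes of apoptosis are BAX, the BH3-only genes BBC3 (PUMA) and PMAIP1 (NOXA), the TRAIL receptor TNFRSF10B, AEN, EDA2R and TRIAP1. None of them had a call in the main fit. BAX ranged from 41.1 to 76.5 FPM, with log2 fold changes over siC of 0.05 (95% interval -0.46 to 0.55) in siI1, 0.10 (-0.41 to 0.60) in siI2 and 0.29 (-0.22 to 0.79) in siI3, and of -0.22, -0.06 and 0.06 with GC and length corrected. TNFRSF10B was the most even of the receptors, with means of 34.1 ± 0.50 FPM in siI1, 34.2 ± 8.52 FPM in siI2, 35.9 ± 9.28 FPM in siI3 and 34.6 ± 6.90 FPM in siC (SD, n = 3 each). BBC3 was low, at 0.919 to 4.07 FPM or 5 to 32 reads, and its log2 fold change over siC in siI3 was 0.64 (95% interval -0.02 to 1.30), or 0.01 with GC and length corrected.

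EDA2R, the receptor of ectodysplasin A2, had 14.3, 15.2 and 13.8 FPM in siI1, 7.03, 7.35 and 10.9 FPM in siI2, 10.5, 9.02 and 7.97 FPM in siI3, and 12.9, 15 and 17.1 FPM in siC. Every siI2 and siI3 library lay below every siC library, but the log2 fold changes of -0.78 in siI2 and -0.65 in siI3 did not pass (limma adjusted p of 0.0887 and 0.0796), and with GC and length corrected they were -0.42 and -0.23 (adjusted p of 0.401 and 0.59). TRIAP1, an inhibitor of apoptosis, was lower without overlap in all 3 knockdowns, with 2.64 to 9.39 FPM over the 12 libraries and log2 fold changes of -0.67, -0.60 and -0.61 in siI1, siI2 and siI3 over siC, none of which passed. With GC and length corrected these were -0.26, -0.20 and -0.14.

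XPC and DDB2, which recognize ultraviolet damage, act in DNA repair and replication, as do the translesion polymerase POLH and the ribonucleotide reductase subunit RRM2B. None of them had a call in any of the 6 comparisons in the main fit. DDB2 ranged from 5.58 to 14.3 FPM and POLH from 6.06 to 27.2 FPM. GTPBP2, at 47.0 to 73.1 FPM, overlaps POLH on the opposite strand. The level of POLH is therefore uncertain, since no source used here states whether counting used the strand. Other targets also overlap expressed genes, so their levels may be uncertain too. Examples are XPC with LSM3 (2.48 to 28.8 FPM), TNFRSF10B with RHOBTB2 (10.3 to 22.9 FPM) and MDM2 with CPM (0.281 to 15.99 FPM). The part of these overlaps in the levels was not tested. RRM2B had means of 0.876 ± 0.43 FPM in siI1, 2.51 ± 0.66 FPM in siI2, 2.54 ± 1.12 FPM in siI3 and 2.09 ± 1.18 FPM in siC (SD, n = 3 each), on 4 to 26 reads.

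The remaining targets act in metabolism, redox balance and signalling, and none of them was called in the main fit. TP53I3 and the ferredoxin reductase FDXR ranged from 8.98 to 16.6 FPM and from 4.25 to 15.2 FPM. SESN1, a sestrin that restrains growth signalling under stress, the RNA-binding zinc finger protein ZMAT3 and PHLDA3, an inhibitor of AKT, were low, at 1.22 to 3.73, 3.01 to 7.04 and 1.65 to 4.36 FPM.

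Of a list of 22 genes that act on p53 or beside it, 19 were tested. In siI1 0 rose (background 3.77%) and 1 of 19 fell (4.42%), the deacetylase SIRT1 (log2 fold change -1.15, limma adjusted p = 0.0364). In siI2 limma called 0 (background 1.51%), and edgeR and DESeq2 also called 0. An unadjusted p below 0.05 was seen for 5 (share over all genes not counted). In siI3 1 of 19 rose (background 2.3%), the p53 relative TP63 (0.89, adjusted p = 0.0374), and 2 fell (8.29%), the checkpoint kinase CHEK1 (-1.84, adjusted p = 0.0138) and the ribosomal protein RPL5, which binds MDM2 (-1.10, adjusted p = 0.044). SIRT1 and RPL5 did not pass with GC and length corrected (adjusted p of 0.214 and 0.173). The median log2 fold changes of the 19 were -0.15, -0.35 and -0.39 in siI1, siI2 and siI3, against -0.05, -0.09 and -0.05 over all genes. With GC and length corrected they were 0.03, -0.09 and -0.18, against -0.0012, -0.01 and 0.02 over all genes, so the sign turned in siI1.

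Of a further 30 p53 targets outside the set, 23 were tested. In siI1 1 of 23 rose (background 3.77%), the decoy receptor TNFRSF10C (1.72, limma adjusted p = 0.00499), and 1 fell (4.42%), the decoy receptor TNFRSF10D (-0.71, adjusted p = 0.0424). In siI2 limma called 0 (background 1.51%), with 7 at an unadjusted p below 0.05 (share over all genes not counted). There edgeR called 0 (1.34% of all genes) and DESeq2 called 1, CYFIP2 (5.88%). In siI3 2 of 23 rose (background 2.3%), TNFRSF10C (1.14, adjusted p = 0.0392) and the death domain protein PIDD (0.89, adjusted p = 0.0425), and 1 fell (8.29%), the ribosomal protein RPS27L (-2.54, adjusted p = 0.00177). RPS27L was at 3.30 to 6.56 FPM in siI3, against 18.2 to 51.3 FPM in siC. TNFRSF10D, PIDD and, in siI3, TNFRSF10C did not pass with GC and length corrected (adjusted p of 0.135, 0.264 and 0.0865).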

How the data were processed

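Total RNA of 12 ES-2 libraries was depleted of ribosomal RNA, primed with random hexamers and sequenced in pairs, per the labels' protocols. Per the submitters' processing notes, cutadapt 1.6, TopHat2 2.0.13, the hg19 build, featureCounts 1.4.6 and edgeR 3.12 were used; which annotation and strand setting were used is not stated there. The deposited table holds a signal that the authors scaled for depth, which the file headers call FPM. It summed to 800026 in siI2 replicate 3, the lowest library, and to 1219058 in siC replicate 2, the highest. The scaling was therefore not by the summed reads alone. For the 3 knockdowns the table also holds log2 fold changes over siC by the authors, and an adjusted p-value that the file headers call FDR.

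FPM values were whole multiples of 1 read for 100% of values within a tolerance of 0.01, which gave back reads per gene. The 92 spike-in RNAs were left out and not used for scaling here. They had 174224 to 193703 reads in siC libraries of 6512429 to 11304060 reads. In knockdown libraries of 3299360 to 8277786 reads they had 24770 to 99637. The part of this difference in the levels against siC was not tested. Genes were kept by edgeR's filterByExpr (minimum count 10) on those reads and tested on log2(FPM + 1) with limma 3.58.1 (R 4.3.3, trend option on), 1 coefficient per group. The test was two-sided with Benjamini-Hochberg adjustment, and the code was tested on simulated data. On the recovered counts edgeR 4.0.16 called 1388, 185 and 1370 genes in siI1, siI2 and siI3 against siC, and limma on the deposited values called 1128, 208 and 1460. DESeq2 1.42.0 called 2014, 716 and 2296.

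The GC and length correction subtracted from each library a loess surface (span 0.5) over the longest transcript's GC content and length, for 13554 genes (98.3%). Lengths come from GENCODE release 29 on GRCh38, which may differ from the annotation counted. Values were given per library for targets called in any comparison, and for CDKN1A and MDM2; 1 further gene that the rule and a list name is not reported here. From the other lists up to 3 called genes with the smallest adjusted p were named. TNFRSF10A, PPM1D, EDA2R, AEN and BAX were given per library after their values were seen. The members and lists were chosen with earlier results of these data known. Alternatives were the tool, scaling, pseudocount (0.25 and 4), filter, replicate block, GC correction, the libraries in the fit and each library left out. Read floors and intervals cover counting error or the spread between libraries only.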

Additional observations from a re-analysis of the deposited data

How the results depend on the processing

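The number of p53 targets called against siC was 2 (siI1), 0 (siI2) and 1 (siI3), and it was 0, 3 and 1 for siI1 over siI2, siI1 over siI3 and siI2 over siI3. edgeR, RLE scaling, pseudocounts of 0.25 and 4, a minimum mean of 1 FPM and a fit of only the 2 groups compared left each count within 1.5 times. With no filter on low values, 1 was called in siI1 against siC. DESeq2 called 1 in siI2 and 3 in siI3 against siC, and 1 for siI1 over siI2. The GC and length correction gave 1 in siI2 and 2 in siI3 against siC, and 1 for siI1 over siI2. With siC replicate 2 as the only control, a setting chosen after seeing the data, 0 were called in siI1 against siC. The cause of these shifts was not tested.

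Leaving out each library in turn gave, against siC, 0 to 3 targets for siI1, 0 to 0 for siI2 and 1 to 5 for siI3, with 0 to 0 for siI1 over siI2, 2 to 5 for siI1 over siI3 and 1 to 1 for siI2 over siI3. The lowest value in siI1, 0, came without siC replicate 3, and both values of 5 came without siI3 replicate 3. No called value changed sign in any setting.

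With the replicate number as a block, the counts were 2, 0 and 1 against siC and 0, 3 and 1 between knockdowns, with the same targets called as without it. The numbers were not taken as pairing the samples: the correlation of same-numbered libraries of different groups was -0.45 to 0.45, it was over 0.1 in 7 of 18 pairs, and 3 of 12 libraries were closest to their own number. Over all genes the block moved the count called in siI1, siI2 and siI3 against siC to 696, 95 and 745. Depth limits the low targets most, since CDKN1A in siI1 rests on 11 to 17 reads.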

Other observations

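A pair of gene groups that share stress signals with p53 also had calls. Of 16 genes of the integrated stress response, which slows translation and switches on ATF4 targets, 5 fell and 1 rose in siI1 against siC. ASNS, the asparagine synthetase, had 5.88 ± 3.31 FPM in siI1 and 22.5 ± 4.82 FPM in siC (SD, n = 3 each; log2 fold change -1.86, limma adjusted p = 0.00452). SLC7A11, the cystine transporter, had a log2 fold change of -1.56 (adjusted p = 0.0117), and did not pass after the GC and length correction (0.0637). CARS, the cysteinyl-tRNA synthetase, had -0.84 (adjusted p = 0.0126). Limma called 0 of the 16 in siI2 and in siI3 against siC, with 4 at an unadjusted p below 0.05 in each (share over all genes not counted). In both, edgeR called 0, while DESeq2 called 2 in siI2 (5.88% of all genes) and 3 in siI3 (16.7%). With limma, the background of called genes was 3.77% up and 4.42% down in siI1, 1.51% in either direction in siI2 and 10.6% in siI3.

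Of 12 immediate early genes, which growth factor and stress signals induce within minutes, 11 were tested, and 4 rose in siI3 against siC (background 2.3% up). FOS had 8.58 ± 2.15 FPM in siI3 and 1.94 ± 0.58 FPM in siC (SD, n = 3 each; log2 fold change 1.70, limma adjusted p = 0.00772). FOSB had 1.53 (adjusted p = 0.00772) and DUSP1, a MAP kinase phosphatase, 1.24 (adjusted p = 0.015). Between siI1 and siI3, 5 of the 11 were lower in siI1 (background 2.47% down), led by EGR1 (-2.0, adjusted p = 0.000254). EGR1 rests on 5 to 8 reads in siI1 and 41 to 50 in siI3. Between siI2 and siI3, 3 of the 11 were lower in siI2 (background 0.74% down). These were FOS (-2.47, limma adjusted p = 0.000329), EGR1 (-2.03, 0.00067) and FOSB (-1.68, 0.00402).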
